A study of Mus musculus with 17 samples.

Results

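Microglia are the resident macrophages of the brain, and in the newborn cerebellum they clear dying cells and survey the growing tissue. They depend on signalling through the receptor Csf1r and carry a set of genes, among them Cx3cr1, P2ry12 and Tmem119, that marks them at rest. When phagocytes take up debris, other genes are typically raised, such as the lysosomal protein gene Cd68, the lipid carrier gene Apoe, Spp1, Lpl and Clec7a, and in young animals part of this second set is also carried by microglia of the developing white matter. The receptor Trem2 with its adaptor Tyrobp links the sensing of lipids and debris to that second state.

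The module described here has 32 genes of the 31517 that were measured, 16 of microglial identity and 16 of phagocyte activation. They come from a fixed list that was chosen with earlier results of these data known, and all 32 were found. RNA of whole cerebella was sequenced after poly-A selection in 17 C57BL/6 mouse samples of postnatal day 3, with the meninges removed. Every animal carried Math1-Cre, a recombinase made in granule neuron progenitors and not, as far as is known, in microglia. In the Atr/Bax/Bak-deleted group (5 samples) this was joined by Atr-loxP/loxP and Bax-loxP/loxP on a Bak--/- genome, and the Bax/Bak-deleted controls (4 samples) had Bax-loxP/loxP and Bak--/- without the floxed Atr. The Atr/p53-deleted group (5 samples) had Atr-loxP/loxP and p53-loxP/loxP, and the p53-deleted controls (3 samples) p53-loxP/loxP. Atr is a checkpoint kinase of replication stress, Bax and Bak carry out mitochondrial apoptosis, and p53 relays damage signals to it. Deletion of the floxed genes is limited to cells with Cre, whereas Bak is absent from every cell of its mice, microglia included.

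The 16 libraries used held 42987953 to 100659645 estimated counts, and values are given as CPM, counts scaled to the size of the library, in which 1 count was worth at most 0.0235 CPM. Replicate 3 of the Atr/p53-deleted group held 13601 counts in all, 25 of them in the members, and was left out of every value below unless named. Bak1 was at 0.283 to 0.607 CPM in Atr/Bax/Bak-deleted and 0.237 to 0.563 CPM in Bax/Bak-deleted libraries, against 32.5 to 41.6 and 37.4 to 41.3 CPM in Atr/p53-deleted and p53-deleted ones. Atr itself, summed over its transcripts, did not check its label. It had 35.8 to 43.5 CPM in Atr/Bax/Bak-deleted and 38.4 to 48.0 CPM in Bax/Bak-deleted libraries, and 33.7 to 40.2 CPM in Atr/p53-deleted and 36.3 to 38.2 CPM in p53-deleted ones, so the ranges overlapped in both backgrounds. The sample names fall into number series whose meaning the labels do not give. All Atr/Bax/Bak-deleted samples share 1 series, while replicates 1 and 2 and replicates 3 and 4 of their controls belong to others, so that genotype and series cannot be told apart there.

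All 16 identity genes were above 0 in each of the 16 libraries, with the lowest value 1.05 CPM for Aif1, so the defining markers of microglia were present throughout. Their summed level ran from 199 to 246 CPM in Atr/Bax/Bak-deleted, 136 to 180 in Bax/Bak-deleted, 213 to 224 in Atr/p53-deleted and 199 to 231 in p53-deleted libraries. The lowest sums were thus all in the Bax/Bak-deleted controls. CPM is a share of the library. Fewer microglia, less RNA per microglial cell and more RNA from other cells therefore cannot be told apart here. On a scale corrected for transcript length (TPM-like values, counts per base scaled to the library), Apoe led at a mean of 1380 over the 16 libraries, followed by Cd63 at 341, Ctsd at 232 and Ctsb at 154. These 4 genes are made by many brain cells. The highest identity genes were the complement chains C1qc at 33.5 and C1qb at 33.0, and the lowest members were Itgax at 0.469 and Cst7 at 0.204.

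Without Bax and Bak, microglial identity genes were mostly higher after deletion of Atr. Of the 16 identity genes, 12 were higher in Atr/Bax/Bak-deleted cerebella and 0 lower by edgeR's quasi-likelihood test at an adjusted p of 0.05. Over all 17425 genes tested 44.5% were called, 22.5% higher and 22.0% lower. The median log2 difference of the 16 genes was 0.53, against 0.04 over all genes, and 10 of the 16 had ranges that did not overlap upward, as had 17.1% of all genes.

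Itgam, the alpha chain of complement receptor 3 (CD11b), had the largest difference of the identity genes. It stood at 7.83, 6.41, 7.51, 7.94 and 6.82 CPM in Atr/Bax/Bak-deleted libraries, against 2.90, 4.52, 4.06 and 3.19 CPM in Bax/Bak-deleted ones. Every Atr/Bax/Bak-deleted library was above every control. The log2 fold change was 1.01 ± 0.14 (SE; adjusted p = 2.03e-04). Of its 31-base words, 67.2% are shared with the readthrough transcript Gm49368, which did not pass 0.0379 CPM in any library. Trem2, the lipid receptor, had 5.10, 5.59, 4.80, 4.39 and 4.57 CPM in Atr/Bax/Bak-deleted libraries, against 3.41, 1.98, 2.66 and 2.96 CPM in controls. The groups again did not overlap, with a log2 fold change of 0.84 ± 0.16 (adjusted p = 0.00125). Laptm5, a lysosomal membrane protein of blood-lineage cells, had 19.6, 25.2, 23.8, 20.9 and 25.2 CPM in Atr/Bax/Bak-deleted libraries, against 16.04, 15.98, 12.1 and 13.8 CPM in controls, and did not overlap either (0.68 ± 0.11, adjusted p = 4.15e-04).

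The windows of 250 bases upstream of the start of 7 members are printed to show members that moved together beside others that did not. They come from RefSeq on GRCm38.p6. Capitals mark GAGGAA or its reverse complement TTCCTC, the core of the motif bound by PU.1 (the product of Spi1, a regulator of macrophage genes), and, in Ctsd, CACGTG, the E-box read by the lysosomal regulators Tfeb and Mitf. Both strands were searched and the motifs were picked with results known. The windows are Itgam on chr7:128062390-128062639 (plus strand), Trem2 on chr17:48346151-48346400 (plus), Laptm5 on chr4:130913066-130913315 (plus), C1qb on chr4:136886201-136886450 (minus), Cd68 on chr11:69666171-69666420 (minus), Spp1 on chr5:104434861-104435110 (plus) and Ctsd on chr7:142387828-142388077 (minus).
Itgam: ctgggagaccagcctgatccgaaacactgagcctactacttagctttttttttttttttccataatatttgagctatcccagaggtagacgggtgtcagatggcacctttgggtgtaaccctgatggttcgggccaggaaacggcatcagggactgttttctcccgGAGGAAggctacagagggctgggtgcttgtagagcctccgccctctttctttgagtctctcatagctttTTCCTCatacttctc
Trem2: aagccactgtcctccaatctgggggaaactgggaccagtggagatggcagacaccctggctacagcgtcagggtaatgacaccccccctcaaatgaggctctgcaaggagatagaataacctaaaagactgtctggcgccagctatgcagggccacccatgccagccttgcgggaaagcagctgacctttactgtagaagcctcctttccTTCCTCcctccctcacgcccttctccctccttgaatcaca
Laptm5: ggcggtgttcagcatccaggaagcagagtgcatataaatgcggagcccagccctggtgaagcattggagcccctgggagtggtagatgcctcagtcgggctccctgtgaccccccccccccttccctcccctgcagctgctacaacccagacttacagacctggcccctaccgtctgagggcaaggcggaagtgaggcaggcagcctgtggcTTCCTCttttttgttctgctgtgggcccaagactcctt
C1qb: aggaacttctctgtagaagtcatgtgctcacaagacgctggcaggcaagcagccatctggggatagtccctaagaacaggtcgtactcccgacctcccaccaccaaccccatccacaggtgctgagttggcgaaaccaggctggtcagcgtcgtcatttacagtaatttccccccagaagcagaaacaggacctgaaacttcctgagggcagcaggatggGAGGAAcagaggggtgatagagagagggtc
Cd68: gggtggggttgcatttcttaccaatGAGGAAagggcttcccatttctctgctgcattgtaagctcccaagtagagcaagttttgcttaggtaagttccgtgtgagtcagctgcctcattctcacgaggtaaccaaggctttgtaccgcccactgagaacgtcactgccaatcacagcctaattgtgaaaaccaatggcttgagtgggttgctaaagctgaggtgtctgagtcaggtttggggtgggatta
Spp1: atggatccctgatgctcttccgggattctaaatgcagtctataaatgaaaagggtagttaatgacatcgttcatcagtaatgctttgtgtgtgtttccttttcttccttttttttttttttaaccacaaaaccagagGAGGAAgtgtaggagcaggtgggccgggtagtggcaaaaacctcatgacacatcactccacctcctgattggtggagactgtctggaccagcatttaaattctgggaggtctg
Ctsd: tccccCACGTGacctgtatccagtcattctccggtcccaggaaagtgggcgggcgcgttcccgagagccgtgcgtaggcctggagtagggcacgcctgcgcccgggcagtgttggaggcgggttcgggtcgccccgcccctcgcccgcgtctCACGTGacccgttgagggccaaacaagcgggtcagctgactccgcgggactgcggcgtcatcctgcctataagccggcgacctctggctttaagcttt

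GAGGAA occurred in 16 of the 25 members with a window (64.0%), 9 of 12 identity and 7 of 13 activation members, and in 23.3% of the 32851 windows of all genes. The longer form GAGGAAGT was found in 2 members, C1qc and Spp1, and in 2.44% of all windows. CACGTG was found in 3 members, P2ry12, Siglech and Ctsd, and in 6.02% of all windows. Csf1r, Tmem119, C1qa, Tyrobp, Cd14, Lpl and Ctsb had no window. Those of P2ry12, Aif1 and Igf1, counted here, lie 42726, 3233 and 2043 bases from the start of the gene's transcript with the most counts. A match describes letters in the window and does not show binding, and Spp1, which fell, holds the same core as Itgam and Trem2, which rose. The windows of Cx3cr1, P2ry12, Siglech and Lgals3, which also rose and are not printed, lack GAGGAA. Those of Ptprc and Clec7a, which were not called, hold it. The printed windows are thus not a fair sample of the members that rose.

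Among the genes of resting microglia, Cx3cr1, the receptor for the neuronal chemokine Cx3cl1, had 22.3, 28.6, 25.9, 23.1 and 27.0 CPM in Atr/Bax/Bak-deleted libraries, against 19.1, 18.5, 15.98 and 17.7 CPM in controls. P2ry12, the ADP receptor that guides microglial processes, had 14.9, 17.7, 13.96, 13.8 and 15.5 CPM in Atr/Bax/Bak-deleted libraries, against 12.6, 12.04, 10.8 and 9.39 CPM in controls. Neither gene's groups overlapped, and the log2 fold changes were 0.53 ± 0.09 (adjusted p = 5.31e-04) and 0.46 ± 0.10 (adjusted p = 0.00392). Csf1r, the growth factor receptor that microglia need to survive, had 40.5, 51.7, 46.3, 43.6 and 48.3 CPM in Atr/Bax/Bak-deleted libraries, against 40.5, 34.7, 24.3 and 22.9 CPM in controls. It was called higher (0.61 ± 0.17, adjusted p = 0.0154) although its ranges met at 40.5 CPM. Csf1r overlaps Hmgxb3 on the opposite strand and shares 17.4% of its words with it. Hmgxb3 stood at 39.8 to 58.0 CPM over the 16 libraries, and its part in the Csf1r values was not tested. Siglech, a sialic acid-binding lectin, was higher by 0.54 ± 0.13 and Fcrls, an Fc receptor-like scavenger molecule, by 0.31 ± 0.09. Tmem119, a microglial surface protein, did not pass, with 4.74 ± 0.72 CPM (SD, n = 5) in Atr/Bax/Bak-deleted and 3.62 ± 1.11 CPM (n = 4) in Bax/Bak-deleted libraries (0.41 ± 0.20, adjusted p = 0.12).

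The complement chains C1qb and C1qc, which tag debris and synapses for uptake, rose together by 0.57 ± 0.11 and 0.50 ± 0.10. C1qa, the third chain of the same complex, had 0.36 ± 0.16 and did not pass (adjusted p = 0.0944). Tyrobp, the adaptor that carries the Trem2 signal, stayed closer to its control at 5.97 ± 0.20 CPM in Atr/Bax/Bak-deleted and 5.24 ± 0.79 CPM in Bax/Bak-deleted libraries (0.21 ± 0.11, adjusted p = 0.165). Aif1 (Iba1, an actin-bundling protein) rose by 0.52 ± 0.15 and the lysosomal protease gene Ctss by 0.62 ± 0.14. Ptprc (CD45), carried by all leukocytes, differed by 0.03 ± 0.17 (adjusted p = 0.914).

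**Figure D1:**
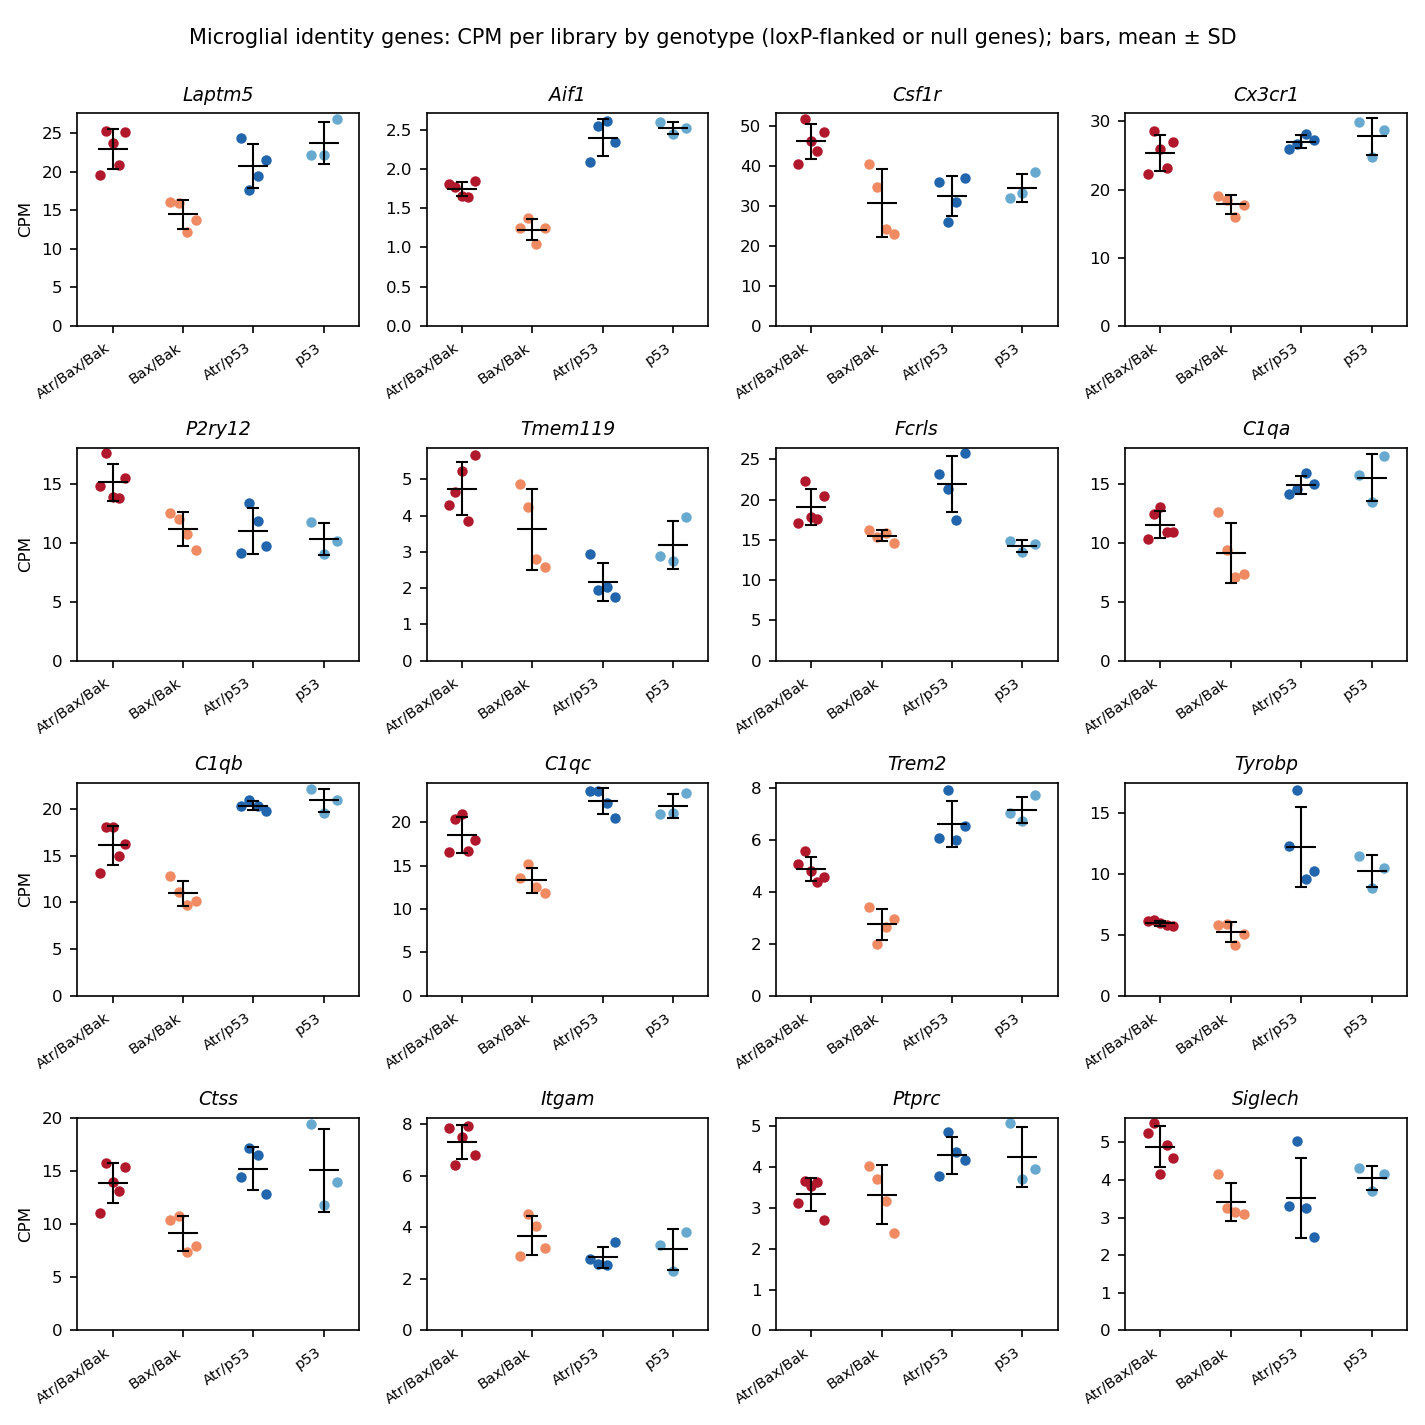
CPM of the 16 identity genes in each of 16 libraries, from left to right Atr/Bax/Bak-deleted, Bax/Bak-deleted, Atr/p53-deleted and p53-deleted; points are libraries and bars are mean ± SD. Itgam stands at 6.41 to 7.94 CPM in the Atr/Bax/Bak-deleted libraries and at most 4.52 CPM elsewhere, while Trem2 and C1qb are lowest in the Bax/Bak-deleted controls.

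The activation genes were called in both directions. Of the 15 that could be tested, 6 were higher, 3 lower and 6 not called in Atr/Bax/Bak-deleted cerebella, with a median log2 difference of 0.21. The 3 of 15 lower were near the 22.0% of all genes, and the share higher was 40.0% beside 22.5%. Ranges did not overlap upward in 5 and downward in 3, as in 17.1% and 21.1% of all genes. Cst7, an inhibitor of lysosomal proteases, was too low to test. Cd68, the lysosomal glycoprotein used to stain phagocytes, had 6.31, 6.12, 6.19, 5.46 and 5.26 CPM in Atr/Bax/Bak-deleted libraries, against 4.32, 3.94, 4.28 and 4.07 CPM in controls. Apoe had 838, 863, 781, 661 and 866 CPM in Atr/Bax/Bak-deleted libraries, against 567, 527, 531 and 535 CPM in controls. In both genes every Atr/Bax/Bak-deleted library was above every control, and the log2 fold changes were 0.52 ± 0.10 (adjusted p = 0.00147) and 0.59 ± 0.08 (adjusted p = 1.34e-04). Lgals3 (galectin-3), a lectin of damaged lysosomes, rose by 0.64 ± 0.14 and Axl, a receptor for dying cells bridged by Gas6, by 0.40 ± 0.07. Smaller changes, in Igf1 (0.26 ± 0.09, adjusted p = 0.0428) and the protease gene Ctsb (0.17 ± 0.05, adjusted p = 0.0146), were lost under 11 and 4 of 20 alternatives. Igf1 fell short without Bax/Bak-deleted replicate 2, for example, and Ctsb without replicate 4.

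Spp1 (osteopontin), a secreted protein of white-matter and injury-associated microglia that other cells also make, went the other way. It had 8.34, 7.02, 5.57, 3.44 and 5.75 CPM in Atr/Bax/Bak-deleted libraries, against 12.9, 13.4, 18.2 and 18.3 CPM in Bax/Bak-deleted ones. All 5 values lay below all 4 controls (-1.36 ± 0.23, adjusted p = 8.95e-04). Cd63, a lysosomal tetraspanin, had 129, 142, 154, 140 and 134 CPM in Atr/Bax/Bak-deleted libraries, against 176, 176, 179 and 196 CPM in controls, and was lower without overlap (-0.36 ± 0.06, adjusted p = 4.84e-04). Lpl, the lipoprotein lipase gene, was lower too, at 17.7 ± 1.5 CPM against 23.2 ± 2.1 CPM (-0.37 ± 0.08). Clec7a (Dectin-1), Itgax (CD11c), Gpnmb and Ctsd were not called. Among these, Clec7a had 0.493 to 0.976 CPM in Atr/Bax/Bak-deleted and 0.384 to 0.923 CPM in Bax/Bak-deleted libraries.

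**Figure D2:**
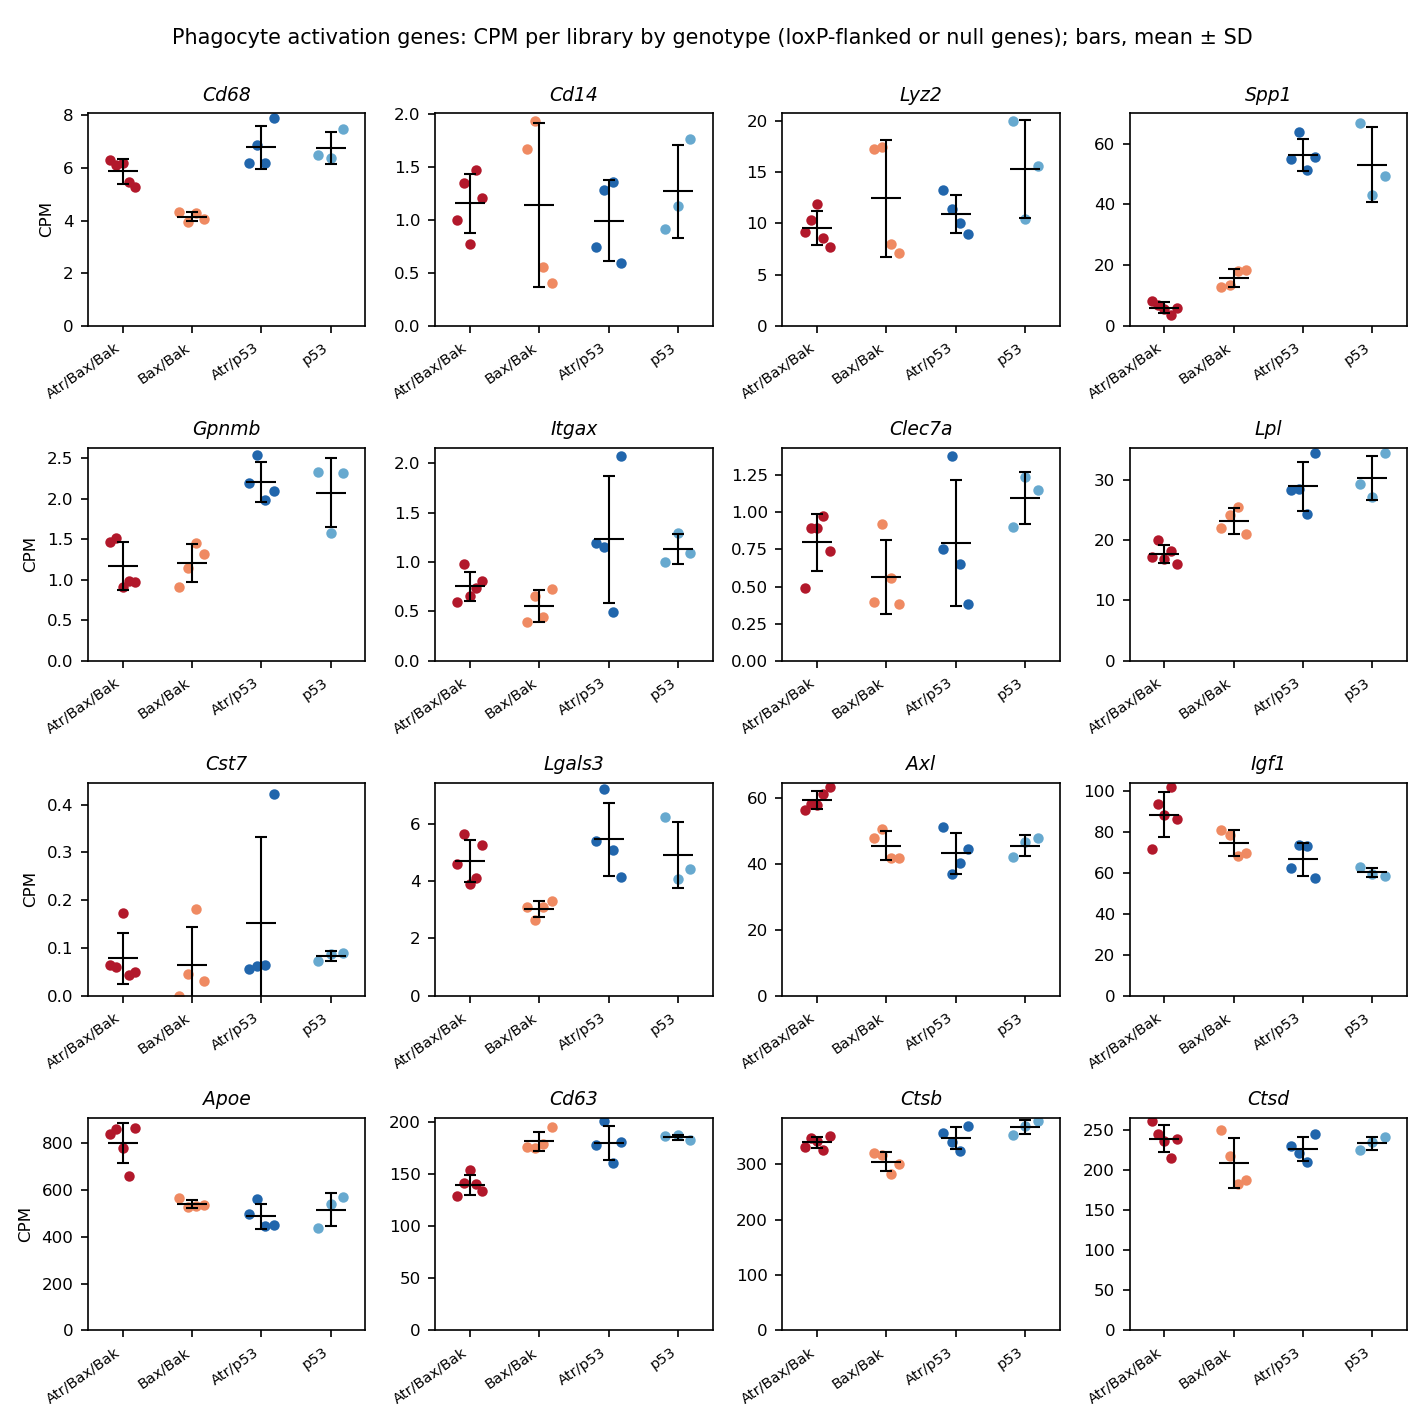
CPM of the 16 activation genes in each of 16 libraries, with groups, points and bars as for the identity genes; bars that would pass below 0 are cut there. Apoe and Axl are highest in the Atr/Bax/Bak-deleted libraries, whereas Spp1 is 3.44 to 8.34 CPM there and 43.2 to 66.99 CPM in the p53 background.

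The Bax/Bak-deleted controls of the 2 number series differed from each other in several members. Lyz2 (lysozyme), a gene of macrophages and granulocytes, averaged 17.3 CPM in control replicates 1 and 2 and 7.52 CPM in replicates 3 and 4, and Cd14, the co-receptor for bacterial lipopolysaccharide, 1.80 and 0.481 CPM. Against replicates 1 and 2 alone, 9 identity genes were higher and 0 lower, and 4 activation genes were higher and 4 lower, Lyz2 among them (-0.85, adjusted p = 0.00156). In that fit 21.2% of all genes were higher and 20.4% lower, so the activation counts were near those of all genes. Against replicates 3 and 4 alone, 15 identity genes were higher, 8 activation genes were higher and 3 lower, and Cd14 was higher (1.25, adjusted p = 0.00689), where 20.2% of all genes were higher and 24.6% lower. Itgam was higher by 0.99 against replicates 1 and 2 and by 0.98 against replicates 3 and 4, and Trem2 by 0.87 and 0.77. Csf1r differed by 0.31 and 0.94 against the same pairs. Leaving out 1 library at a time left 12 to 14 identity and 7 to 10 activation genes called.

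In the p53 background, no member passed the test after deletion of Atr. Of the 31 members tested, 0 were called, where 0.0461% of 17361 genes were called by edgeR, 8 genes, all higher. The median difference was -0.04 for identity and -0.03 for activation genes, against 0.01 over all genes. At an unadjusted p under 0.05, 1142 of all genes passed, DESeq2 called 128 genes and limma-voom 4. Leaving out Atr/p53-deleted replicate 1 or 2, or p53-deleted replicate 1, 2 or 3, moved the count of all genes called to between 2 and 13. Among the members, 3 had an unadjusted p under 0.05, Fcrls, Tmem119 (-0.55) and Lyz2 (-0.48). Fcrls had the smallest p, with 23.2, 21.3, 17.5 and 25.8 CPM in Atr/p53-deleted libraries, against 14.8, 13.4 and 14.5 CPM in p53-deleted ones. Its ranges did not overlap, as in 3.58% of all genes upward and 4.64% downward, and those of the other 30 members tested did, but its adjusted p was 0.345 (0.63 ± 0.13), while DESeq2 (adjusted p = 0.00659) and the joint fit of 16 libraries (adjusted p = 0.0276) called it. Itgam had 2.76, 2.58, 2.54 and 3.44 CPM in Atr/p53-deleted libraries, against 3.31, 2.29 and 3.83 CPM in p53-deleted ones, and Trem2 6.08, 7.92, 5.99 and 6.54 CPM against 7.06, 6.72 and 7.72 CPM. Both overlapped, with approximate 95% intervals of the log2 difference from -0.57 to 0.29 for Itgam and from -0.39 to 0.18 for Trem2. Spp1 stood at 54.9, 63.9, 51.5 and 55.5 CPM in Atr/p53-deleted libraries, against 66.99, 43.2 and 49.3 CPM in p53-deleted ones. All 4 Atr/p53-deleted samples and p53-deleted replicate 1 share a number series.

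**Figure D3:**
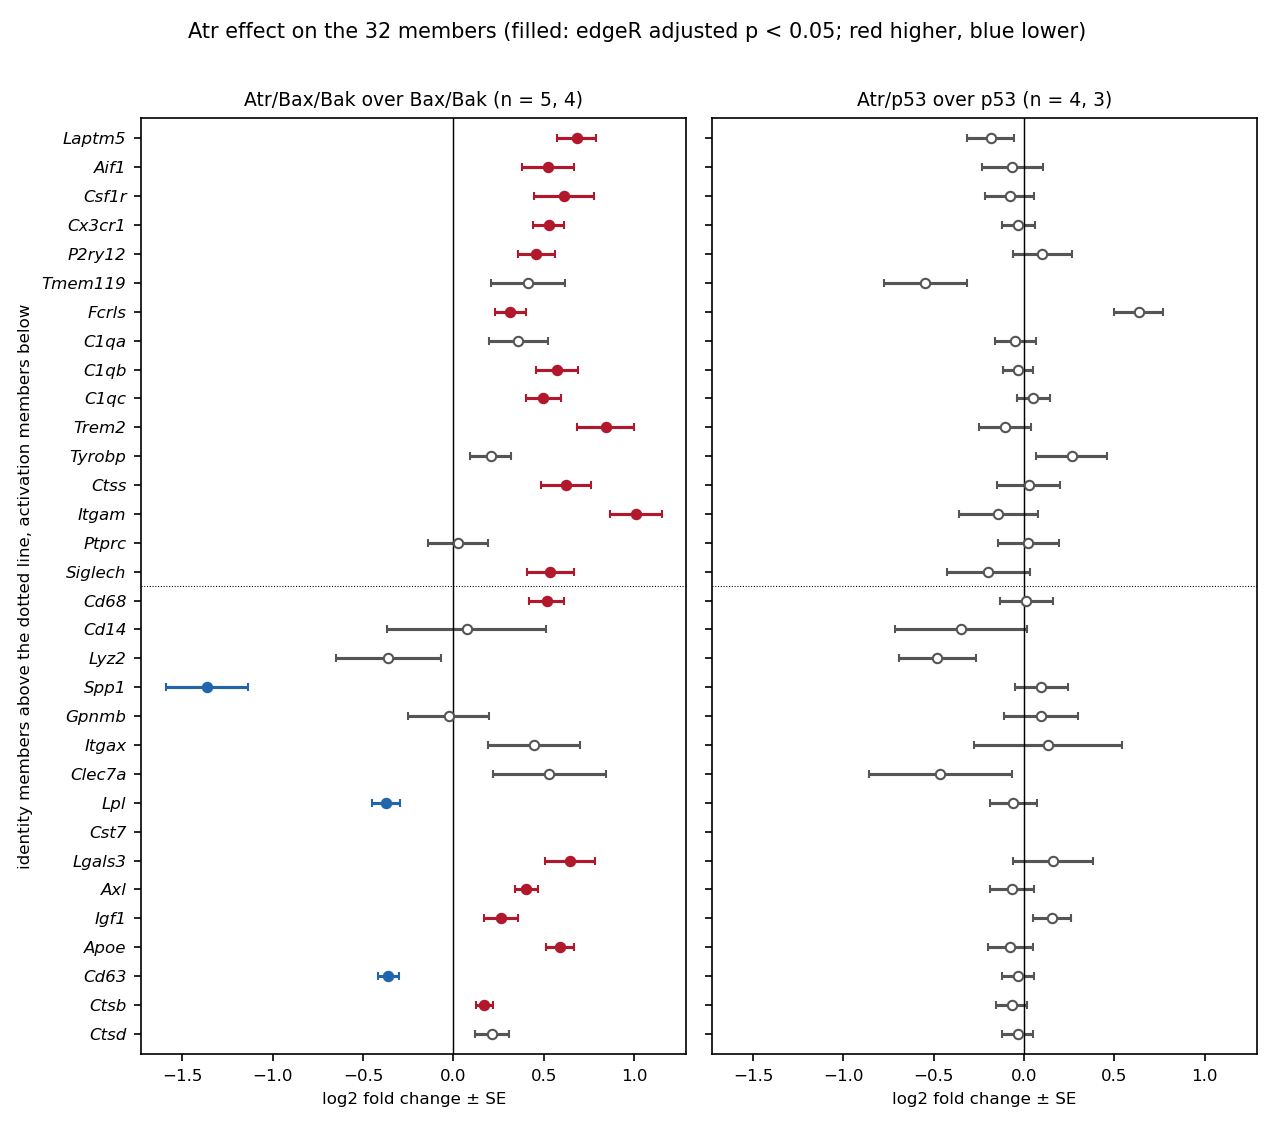
Log2 fold change ± SE of each member after Atr deletion, without Bax and Bak (left) and without p53 (right); filled points passed an edgeR adjusted p of 0.05, red higher and blue lower, and Cst7 was not tested. Filled points are 21 on the left and 0 on the right, where most members lie near 0.

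Whether the effect of Atr deletion differed between the backgrounds was tested by an interaction term fitted to the 16 libraries. By this term, 16.1% of 18189 genes were called, 8.05% in each direction. Of the 16 identity genes, 6 had a higher Atr effect in the Bax/Bak background by this test. Itgam was higher by 1.14 ± 0.25, Trem2 by 0.94 ± 0.22, Laptm5 by 0.86 ± 0.17, C1qb by 0.60 ± 0.15, Cx3cr1 by 0.55 ± 0.12 and C1qc by 0.44 ± 0.14. Of the activation genes, Apoe (0.65 ± 0.14), Cd68 (0.50 ± 0.16) and Axl (0.46 ± 0.13) were higher, and Spp1 (-1.47 ± 0.30, adjusted p = 0.00494) and Cd63 (-0.33 ± 0.10) lower. Of these 11 genes, 7 kept their call under all 25 alternatives. The others were C1qc, Cd68, Axl and Cd63, lost under 11, 15, 7 and 4 of them. Since this test shares its libraries with the comparisons above, its values stand beside those and not apart from them. The activation count was 2 or 3 without Bax/Bak-deleted replicate 3 or 4, Atr/Bax/Bak-deleted replicate 2 or 5, p53-deleted replicate 2 or 3 or Atr/p53-deleted replicate 4, and the identity count was 10 without Bax/Bak-deleted replicate 1.

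The controls of both backgrounds also differed. In Bax/Bak-deleted against p53-deleted controls, 9 identity and 6 activation genes were lower and 0 higher, where 18.0% of all genes were called, 9.32% lower and 8.71% higher. Ranges did not overlap in 9 identity and 7 activation genes that were lower and in 1 activation gene, Igf1, that was higher, as in 16.2% of all genes downward and 15.2% upward. The split over all genes was 1584 higher and 1695 lower, and 1317 and 2195 with upper-quartile scaling. Trem2 was at 1.98 to 3.41 CPM in Bax/Bak-deleted controls and 6.72 to 7.72 CPM in p53-deleted ones (-1.38 ± 0.16), Aif1 at 1.05 to 1.37 and 2.45 to 2.60 CPM (-1.04 ± 0.15), and Tyrobp at 4.20 to 5.87 and 8.88 to 11.5 CPM (-0.97 ± 0.17). The C1q chains, Laptm5, Ctss and Cx3cr1 were lower by log2 differences of -0.94 to -0.64. Spp1 was at 12.9 to 18.3 CPM against 43.2 to 66.99 CPM (-1.76 ± 0.22), with Cd68, Gpnmb, Lgals3, Lpl and Ctsb also lower. Of the 6 genes of resting microglia, Cx3cr1, P2ry12, Tmem119, Fcrls, Siglech and Csf1r, Cx3cr1 alone was called, and their median was -0.03. Several members lie on the chromosome of an engineered gene. Trem2 and Aif1 are 21.3 and 8.14 Mb from Bak1 on chromosome 17, Tyrobp is 15.04 Mb from Bax on chromosome 7, and Cd68 is 72.3 kb from Trp53 on chromosome 11. Siglech, Axl and Apoe, which were not called here, are 10.3, 19.7 and 25.8 Mb from Bax. For the comparisons of Atr deletion above, Cx3cr1 lies 23.9 Mb from Atr on chromosome 9. The part of these loci in the differences was not tested. Background, deposited table and number series cannot be told apart here.

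Set side by side, Atr/Bax/Bak-deleted and Atr/p53-deleted cerebella differed in which members were high, a comparison added once the levels were known, in which 47.1% of all genes were called, 24.3% higher and 22.8% lower. Of the identity genes, 5 were higher, Itgam by 1.37 ± 0.17, Tmem119 by 1.13 ± 0.21, Csf1r, Siglech and P2ry12, and 6 were lower, Tyrobp by -1.04 ± 0.15, Aif1, Trem2 and the 3 C1q chains. Tmem119 had 4.30, 4.66, 5.23, 3.85 and 5.66 CPM in Atr/Bax/Bak-deleted libraries, against 2.94, 1.94, 2.03 and 1.76 CPM in Atr/p53-deleted ones, without overlap, as in 21.1% of all genes upward and 18.6% downward. Of the 6 resting genes 4 were higher and 0 lower. Siglech and C1qa lost their call under 7 and 6 of 25 alternatives. The lower calls of the C1q chains, Aif1 and Cd63 depended on the scale. C1qa and C1qb have 1 transcript each, so for them the scales differ only in how the library is scaled. Corrected for length, C1qc had 35.8 ± 3.9 (SD) in Atr/Bax/Bak-deleted and 36.7 ± 4.0 in Atr/p53-deleted libraries. C1qb had 34.4 ± 4.5 and 36.8 ± 3.8, C1qa 25.7 ± 2.4 and 28.2 ± 4.0, and Aif1 5.28 ± 0.58 and 5.80 ± 0.78. Tyrobp (24.5 ± 1.1 and 41.9 ± 6.3) and Trem2 (7.38 ± 0.96 and 10.3 ± 0.4) stayed lower. Among activation genes, Apoe (0.72 ± 0.09), Axl and Igf1 were higher, and Spp1, Gpnmb, Lpl and Cd63 lower. On the length-corrected scale Cd63 had 305 ± 17 (SD) in Atr/Bax/Bak-deleted and 332 ± 29 in Atr/p53-deleted libraries. Spp1 differed by -3.23 ± 0.21, a 9.35-fold lower level in Atr/Bax/Bak-deleted cerebella, and on the length-corrected scale it was the 20th highest member there and the 5th in Atr/p53-deleted ones.

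As a summary per library, the mean log2 CPM of the 16 activation genes was subtracted from that of the 16 identity genes. It was -0.21 ± 0.04 (SD, n = 5) in Atr/Bax/Bak-deleted, -0.60 ± 0.18 (n = 4) in Bax/Bak-deleted, -0.54 ± 0.09 (n = 4) in Atr/p53-deleted and -0.57 ± 0.08 (n = 3) in p53-deleted libraries. Atr/Bax/Bak-deleted libraries ran from -0.26 to -0.15 and controls from -0.76 to -0.35, so they did not overlap. With only the 6 activation genes most restricted to myeloid cells, Cd68, Cd14, Lyz2, Itgax, Clec7a and Cst7, the difference between both groups was 0.18 rather than the 0.39 of the full list. In the p53 background the same change gave 0.16 rather than 0.036, so that the difference between the backgrounds was 0.0195 with the restricted list and 0.35 with the full one. No test is given for a score over chosen members.

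**Figure D4:**
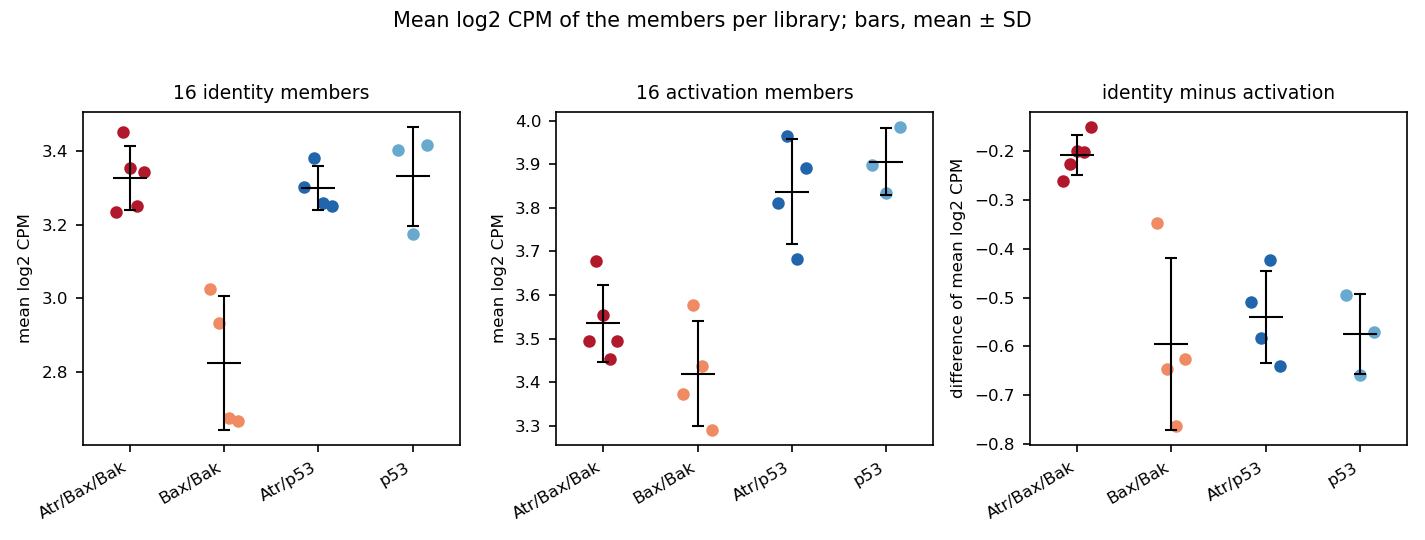
Mean log2 CPM of the identity genes, of the activation genes, and their difference, per library and group; points are libraries and bars are mean ± SD. The difference is -0.26 to -0.15 in Atr/Bax/Bak-deleted libraries and no higher than -0.35 in any other.

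Of 47 further microglia genes, 22 were higher, 0 lower and 25 not called without Bax and Bak, with a median of 0.33. Over all genes, 22.5% were higher and 22.0% lower in this comparison, against which the counts of each list below stand. Itgb2, the beta chain that pairs with Itgam, was at 3.41 ± 0.48 CPM in Atr/Bax/Bak-deleted and 1.14 ± 0.20 CPM in Bax/Bak-deleted libraries (1.60 ± 0.17, adjusted p = 3.57e-05), the phosphatase gene Inpp5d rose by 1.18 ± 0.13 and Bin2 by 0.87 ± 0.14. Of 21 regulators 9 were higher and 1 lower, with Sall1 (0.75 ± 0.07), Bhlhe41 (0.70 ± 0.08) and the growth factor gene Csf1, a ligand of Csf1r (0.68 ± 0.08), at the smallest p. Neither Spi1 (0.29 ± 0.15) nor Irf8 (0.31 ± 0.13), transcription factors of microglia, passed. Of 21 phagocytosis genes tested 9 were higher and 2 lower. Those of smallest p, all higher, were Adgrb1, a phosphatidylserine receptor (0.82 ± 0.05), Abca1, a lipid exporter (0.72 ± 0.07), and Sirpa, which binds the signal Cd47 (0.67 ± 0.06). Adgrb1 and Abca1 averaged 169 and 172 CPM in Atr/Bax/Bak-deleted libraries, above the 46.1 CPM of Csf1r there. Which cells carry these genes was not tested. Mertk, a receptor for dying cells, and its ligand gene Gas6 rose by 0.57 ± 0.12 and 0.45 ± 0.10. Other genes of this list were at lower levels. Calr had 377 to 420 CPM in Atr/Bax/Bak-deleted and 515 to 533 CPM in Bax/Bak-deleted libraries, and Gulp1 averaged 7.46 and 11.4 CPM. Of 26 lysosome genes 10 were higher and 3 lower, led by Npc1 (0.53 ± 0.06), Psap (0.36 ± 0.05) and Npc2 (-0.24 ± 0.04). Of 15 inflammatory genes 2 were higher (13.3%), Ptgs2 (1.22 ± 0.35) and Cxcl10 (1.36 ± 0.44), both below 1.2 CPM in every library. In the p53 background 0 genes of any of these lists were called.

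Genes of other cell types were also called in Atr/Bax/Bak-deleted cerebella, against the same 22.5% higher and 22.0% lower of all genes, and their part in the members' differences was not tested. Astrocyte and Bergmann glia genes were higher in 11 of 14 and lower in 1, with summed levels of 7914 to 9636 CPM in Atr/Bax/Bak-deleted and 6141 to 6646 CPM in Bax/Bak-deleted libraries. Oligodendrocyte lineage genes were higher in 9 of 13 and lower in 1, with sums of 1655 to 3430 against 990 to 1656 CPM, and Cspg4 rose by 1.35 ± 0.05. Purkinje cell genes were higher in 9 of 11 (2955 to 4282 against 2358 to 2787 CPM), endothelial and pericyte genes in 6 of 15 (818 to 928 against 664 to 849 CPM), and granule lineage genes lower in 13 of 18 and higher in 1 (3289 to 3848 against 4803 to 6028 CPM). Macrophages of the brain's borders had 1 of 14 genes higher, Siglec1 (1.36 ± 0.31), with sums of 99.7 to 110 against 74.5 to 175 CPM. Blood myeloid genes had 0 of 9 called, with sums of 2.96 to 4.94 against 2.86 to 6.87 CPM, and lymphocyte genes 0 of 8, with 7.54 to 8.46 against 6.12 to 9.13 CPM. Erythroid genes had 2 of 9 higher, 22.2% and so near the share of all genes. Meninges and choroid plexus genes had 1 of 15 higher, with sums of 711 to 3429 against 536 to 4983 CPM. These sums varied widely between libraries of a group, and the part of this spread in the members' values was not tested.

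**Figure D5:**
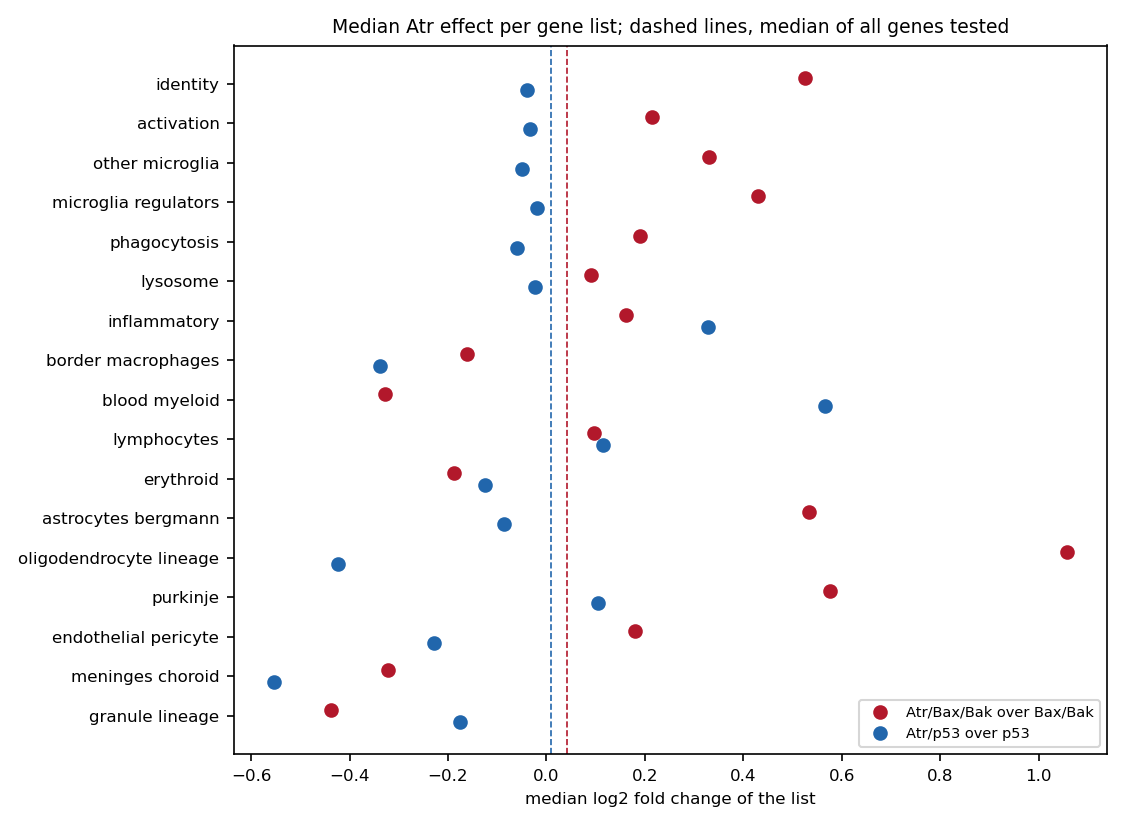
Median log2 fold change of each gene list after Atr deletion, red without Bax and Bak and blue without p53; dashed lines are the medians of all genes tested. The identity list lies at 0.53 in red and at -0.04 in blue. In red, astrocyte and Bergmann glia genes also lie at 0.53, Purkinje cell genes at 0.58, oligodendrocyte lineage genes at 1.06 and granule lineage genes at -0.44.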

How the data were processed

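RNA of 17 cerebellar samples was sequenced with an Illumina TruSeq stranded mRNA kit, per the labels' protocols. Estimated counts, as deposited by the authors, are listed for each Ensembl transcript in 2 lanes of every sample, and no normalization is recorded. The submitters' processing notes name kallisto 0.42.4, edgeR, mm9 and GRCm38 without giving roles. kallisto divides reads among similar transcripts, which affects the values of genes that are nearly alike. Counts of both lanes and of each gene's transcripts in GENCODE M21 (GRCm38) were added up and rounded. Of 94080 transcripts 92372 matched, and the others held 0.746% to 1.008% of counts in deep libraries.

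Comparisons used edgeR 4.0.16 in R 4.3.3 (TMM scaling, default expression filter, robust quasi-likelihood F-tests, Benjamini-Hochberg adjustment over all genes, threshold 0.05). The Atr effects were fitted within each background, and the interaction and the comparisons between backgrounds over 16 libraries jointly. Levels are CPM on jointly scaled libraries, and log2 CPM used a prior count of 2. Shared sequence was measured in 31-base words. The code of the fits was run on simulated counts with the same spread for every gene, which does not show how the fits perform on these libraries. Alternatives used DESeq2 1.42.0, limma 3.58.1, other scalings and filters, 1 number series of controls, and each library left out. Labels name separate samples only, so p-values reflect how these samples vary, a spread that may be technical.

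The members and lists, and the rule that names all members and up to 3 genes of smallest p from other lists, were chosen with earlier results of these data known. Spi1, Irf8, Mertk, Gas6, Calr and Gulp1 were named outside the rule. One library of 13601 counts was left out, its lanes being identical; its name repeats that of Atr/p53-deleted replicate 1 with a suffix, so both may come from 1 animal.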

Additional observations from a re-analysis of the deposited data

Results flagged for a closer look

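The Atr effect differed between the Bax/Bak and p53 backgrounds, by the interaction test in edgeR, in 11 members. The log2 differences were 1.14 for Itgam, 0.94 for Trem2, 0.86 for Laptm5, 0.60 for C1qb, 0.55 for Cx3cr1 and 0.44 for C1qc among identity genes. They were 0.65 for Apoe, 0.50 for Cd68, 0.46 for Axl, -0.33 for Cd63 and -1.47 for Spp1 among activation genes.

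Single libraries stood apart from the rest of their group in 4 of the 96 sets of values examined, and chance alone sets about 1 in 20 apart. Cst7 was at 0.172 CPM in Atr/Bax/Bak-deleted replicate 3, against 0.0424 to 0.0632 CPM in the other libraries of that group. It was at 0.423 CPM in Atr/p53-deleted replicate 5, against 0.0550 to 0.0639 CPM in the others. Siglech was at 4.16 CPM in Bax/Bak-deleted replicate 1, against 3.09 to 3.26 CPM, and Cd63 at 196 CPM in Bax/Bak-deleted replicate 4, against 176 to 179 CPM.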

How the results depend on the processing

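Of the members called after Atr deletion without Bax and Bak, 15 of 21 kept their call under all 20 alternatives. This was 7 of 11 for the interaction, 11 of 15 for the control comparison and 12 of 18 for the Atr-deleted comparison, and no called member changed direction. In the p53 background, all genes called numbered 14 without a filter, 128 with DESeq2, 4 with limma-voom, 70 in the joint fit, 23 with the shallow library kept, 5 against control replicate 1 and 13 against replicates 2 and 3, and 2 to 13 with 1 library left out. DESeq2 and the joint fit each called 1 identity gene there, Fcrls, and the difference of list medians was -0.10 against control replicate 1. In the interaction, DESeq2 and limma-voom called 10 identity genes each and 3 activation genes were called with the shallow library kept. With 1 library left out the interaction gave 1628 to 3562 genes, 5 to 10 identity and 2 to 6 activation genes, with the lowest counts of all genes, 1826 and 1628, without p53-deleted replicate 2 or 3. The control comparison gave 1881 to 4702 genes, and its difference of list medians was -0.46 to -0.17 with a library left out and -0.11 with limma-voom. For the Atr-deleted comparison that difference was -0.0523 to 0.0791. With the 6 myeloid-restricted genes as the activation list, the identity minus activation difference was 0.18 without Bax and Bak, 0.16 in the p53 background, 0.0195 for the interaction, 0.18 for controls and 0.20 for Atr-deleted samples, and with the 6 resting genes as the identity list it was 0.37 for controls and 0.69 for Atr-deleted samples. The cause was not tested. Some sample names of different groups end in the same number, which the labels do not explain. The deviations of these pairs from their group means had correlations of -0.099 to 0.157. With 1 to 3 pairs per comparison, these values cannot show whether the numbers pair the samples. The numbers were also used as a replicate block, an alternative chosen after seeing the data. There, 5459 genes were called after Atr deletion without Bax and Bak, 3067 in the interaction, 3635 in the control and 7541 in the Atr-deleted comparison. In the last, 7 identity genes were called and the difference of list medians was -0.0478. In the p53 background the block was not run, since its groups share 1 number. Members at or below about 1 CPM rest on fewer counts than most, with 17 to 42 per group for Cst7, 150 to 339 for Itgax and 136 to 278 for Clec7a.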
